A study of Homo sapiens with 6 samples.

Results

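The genes of glycolysis, of pyruvate entry into mitochondria and of the pyruvate dehydrogenase complex were followed in MDA-MB-231 cells, a basal, triple-negative breast cancer line, after knockdown of miR-138. The set holds 35 genes taken by their place in the pathway, although earlier results of these data were known when it was drawn up, and it takes every probe annotated to them. Probes were named for 33 of the 35 genes, and all 33 were detected well enough to be tested among 11426 genes. For the lactate transporter genes SLC16A1 and SLC16A3 no probe is named in the annotation used here, so the export of lactate was not analysed here.

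Cells were transduced with a miRZip lentivirus that expresses antagomiR-138, an inhibitor complementary to miR-138 (antimiR-138 in the sample labels), or a scrambled control sequence. The RNA polymerase III promoter H1 drove the inhibitor, and a CMV promoter in the vector drove the fluorescent protein copGFP and puromycin resistance, so both groups carried virus and reporter. Cells grew in DMEM with 10% FBS and were harvested on day 3, 72 h after transduction. The same number of transduction units is recorded for every sample of both groups. There were 3 antagomiR-138 arrays and 3 scrambled control arrays of Illumina bead type. No source used here says whether the replicates were separate cultures, so the p-values measure the spread between these samples only.

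Glycolysis breaks glucose down to pyruvate in the cytosol. Hexokinase traps glucose as glucose 6-phosphate, phosphofructokinase commits it to breakdown, and the enzymes from aldolase to pyruvate kinase make ATP, NADH and pyruvate. Pyruvate then either becomes lactate through lactate dehydrogenase or enters mitochondria through the MPC carrier, where the pyruvate dehydrogenase complex turns it into acetyl-CoA. Pyruvate dehydrogenase kinases switch that complex off and phosphatases switch it on. Many tumour cells make lactate even with oxygen present, and several glycolytic genes are known targets of the hypoxia-inducible factor HIF-1, which binds DNA at a core written ACGTG or GCGTG, and of MYC, which binds the E-box CACGTG.

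The inhibited microRNA is shown because it defines the comparison, with its seed (bases 2 to 8) in capitals. RefSeq (GRCh38.p14) places the same mature sequence at chr3:44114234-44114256 and chr16:56858527-56858549, both on the plus strand.
hsa-miR-138-5p: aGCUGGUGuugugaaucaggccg
The array is not made for mature microRNAs. Its 2 probes for the precursor genes MIR138-1 and MIR138-2 were detected on none of the 6 arrays, so the knockdown itself was not measured in these data.

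Promoters of the glycolytic members were read for the letters ACGTG on either strand, in RefSeq windows of 300 bases, 250 before to 50 after each gene start. The sites below stand in promoters of members whose signal fell upon miR-138 knockdown, except that of PFKM, whose signal rose. Each is read 5′ to 3′ on the gene's strand with the ACGTG match in capitals, and CACGT in capitals is ACGTG on the other strand. The HK2 and LDHA matches are part of CACGTG. HK2, PGM1, PFKP, LDHA and PFKM have several windows, and the distance given counts from the start of a window that holds the match.
HK2, chr2:74834965-74834993, plus strand, 193 bases before the start: attgctgcgcccACGTGggagggagcccc
PGM1, chr1:63593771-63593799, plus strand, 26 bases before the start: ggcgcgtgtgcgACGTGcggcccgcggcg
PFKP, chr10:3069038-3069066, plus strand, 139 bases before the start: ccacgagcgcctACGTGatgcccggcccg
ALDOC, chr17:28576907-28576935, minus strand, 28 bases before the start: ccccggaggagtCACGTagctctgcgaca
PGK1, chrX:78104034-78104062, plus strand, 202 bases before the start: gcggcgtgccggACGTGacaaacggaagc
ENO2, chr12:6914450-6914478, plus strand, 118 bases before the start: acccgcgctcgtACGTGcgcctccgccgg
LDHA, chr11:18394465-18394493, plus strand, 86 bases before the start: agcccgactcacACGTGggttcccgcacg
PDK3, chrX:24465213-24465241, plus strand, 61 bases before the start: cgcgcgccgcgtACGTGcagcaaccgact
PFKM, chr12:48105347-48105375, plus strand, 122 bases before the start of one of its transcripts: agatccagagatCACGTtagggtacacca

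Windows were at hand for 31 of the 35 genes. ACGTG was present in a window of 19 of these 31 genes (61.3%), against 32.6% of the 9222 tested genes with a window and 24.9% of all 27305 genes in the table. The members have more windows per gene, 64 for 31 genes, and with the first window of each gene only the shares were 35.5% of the members and 27.0% of the tested genes. The longer CACGTG, which contains ACGTG, was in 8 of the 31 members (25.8%) and in 12.7% of the tested genes, and with first windows only in 12.9% of the members and 10.3% of the tested genes. By direction, 13 of 20 members that fell, 1 of 3 that rose and 4 of 7 that did not pass the test held ACGTG, and the remaining gene with a match was SLC16A3. No match stood in the windows of SLC2A1, PFKL, PFKFB4, PGAM1, ENO1, PKM or DLD, which fell, nor in those of MPC1 and MPC2, which rose. The other form of the HIF-1 core, GCGTG, was not searched for, so a window without a match here may still hold it. A match is a run of letters and was not tested as a binding site.

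All values below are background-corrected, quantile-normalised log2 signals of a gene's brightest probe. A gene was called where limma's moderated test gave a Benjamini-Hochberg adjusted p under 0.05 over the 11426 genes. Of the 33 members tested, 21 fell upon miR-138 knockdown, 4 rose and 8 did not pass the test. Called members were therefore 75.8% of the set, against 60.1% of all genes tested. The members that fell made up 63.6%, against 29.1% of all genes, whereas 30.9% of all genes rose. The median log2 fold change, antagomiR-138 over scrambled control, was −0.41 for the members and 0.02 for all genes, and the members ranged from −1.33 to 1.25. In 28 members the antagomiR-138 arrays did not overlap the control arrays, 24 of them lower, against non-overlap in 66.6% of all genes. A fall of at least 1.5-fold was called in 11 members, against 13.8% of all genes.

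**Figure D1:**
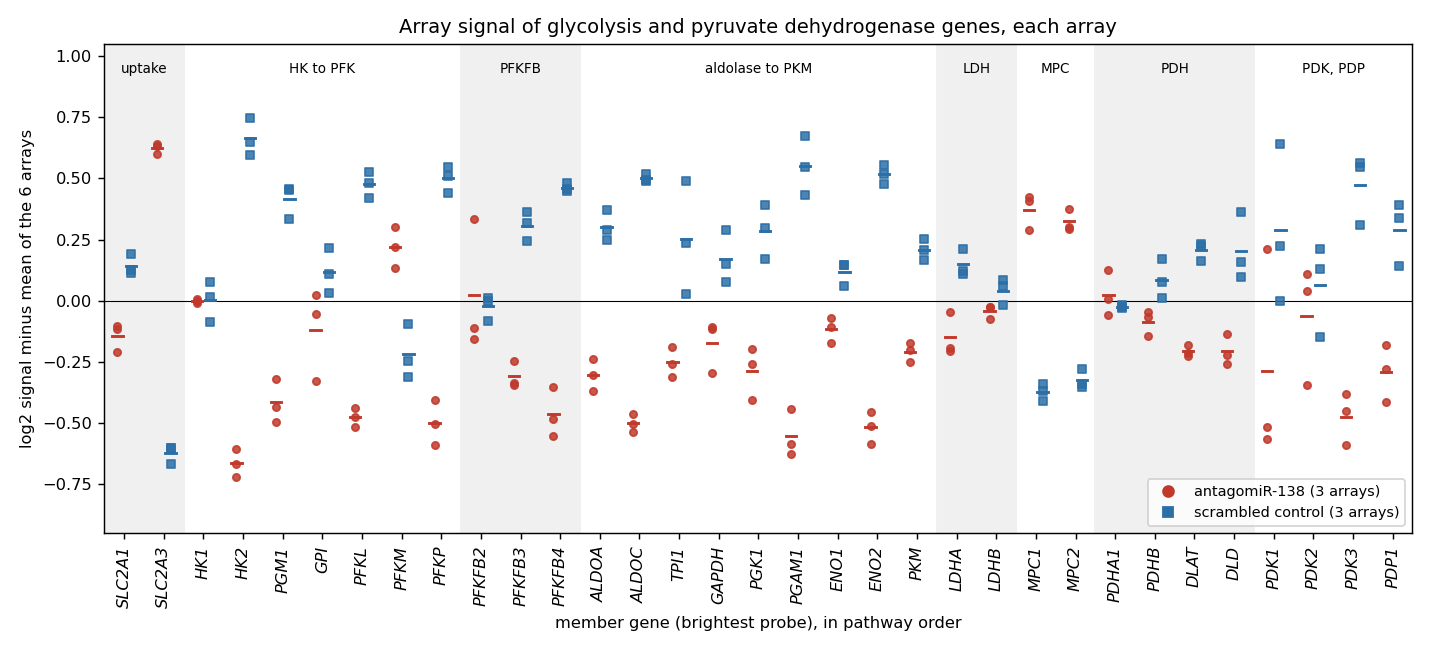
Log2 signal of each of the 33 tested members on each of 6 arrays, minus the gene's mean over the 6 arrays (vertical axis, log2), in pathway order from uptake to the pyruvate dehydrogenase kinases. Red circles are the 3 antagomiR-138 arrays, blue squares the 3 scrambled control arrays and bars the group means; all 9 genes from aldolase to PKM have the antagomiR-138 arrays below the control arrays, while SLC2A3, PFKM, MPC1 and MPC2 have them above.

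The arrays were alike in depth. Between 40.7% and 43.2% of the 47322 probes were detected on an array, arrays of 1 group correlated at 0.996 across genes, and arrays of different groups at 0.962 to 0.964. Markers of mesenchymal basal breast cancer lines were present, with 11 of 13 detected on all 6 arrays. The mean log2 signal of the 12 tested was 11.42 to 11.49 on the antagomiR-138 arrays and 11.65 to 11.70 on the control arrays. Of these 12, 4 fell (EGFR, AXL, CD44 and CAV1), 1 rose (MSN) and 7 did not pass the test. Of 14 luminal markers, 8 were also detected on all 6 arrays (ERBB2, GATA3, KRT8, KRT19, EPCAM, TFF3, XBP1 and AGR2), while ESR1, PGR, FOXA1 and TFF1 were detected on none. Of 11 fibroblast markers, PDGFRA, FAP, POSTN and THY1 were detected on no array, but the mean log2 signal of the 6 tested was 6.81 to 7.01 on the antagomiR-138 arrays and 6.52 to 6.58 on the control arrays. Of these 6, COL1A2 was 3.68-fold, LUM 2.62-fold and COL1A1 at least 1.85-fold higher. PDGFRB was 3.25-fold and DCN 1.27-fold lower, and COL6A3 did not pass the test. COL1A1 was detected on no control array and entered only through the antagomiR-138 arrays, so the mean of the 6 depends in part on the entry rule. LUM was detected on 1 of 3 control arrays and DCN on 1 of 3 antagomiR-138 arrays, so their folds rest on signals near background. The mean of 10 commonly used reference genes also moved with the group, at 12.31 to 12.34 on the antagomiR-138 arrays and 12.48 to 12.49 on the control arrays. Of the 10, HPRT1 (log2 fold change −0.72), SDHA (−0.47) and GUSB (−0.45) fell, PPIA (0.30) rose and 6 did not pass the test. Their median was −0.06. The part of these shifts in the results was not tested for the mesenchymal and fibroblast markers. For the reference genes, centring each array on their mean, a scaling chosen after the data were seen, gave 17 members that fell and 5 that rose, with a members' median of −0.25 against 0.18 for all genes. That scaling also made 67.9% of all called genes higher, against 51.5% without it. RNA from a whole culture was measured, so fewer cells that express a gene and less RNA per cell cannot be told apart.

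At glucose uptake the 2 transporter members moved in opposite directions. SLC2A3 encodes GLUT3, a high-affinity glucose transporter, and had log2 signals of 11.52, 11.53 and 11.49 on the antagomiR-138 arrays, against 10.29, 10.29 and 10.23 on the scrambled control arrays. The groups lay more than 1 log2 unit apart, and SLC2A3 rose 2.37-fold (log2 fold change 1.25, SE 0.053, limma adjusted p = 6.58e-06), with 197 of the 11426 genes raised more. SLC2A1, the widely expressed basal transporter GLUT1, had 12.81, 12.92 and 12.90 on the antagomiR-138 arrays and 13.14, 13.21 and 13.14 on the control arrays. It fell 1.22-fold (limma adjusted p = 0.00477) without overlap, a small shift that was no longer called when the arrays were centred on the reference genes. SLC2A14 is a near-identical copy of SLC2A3, named here after its values were seen, and its own dim probe gave a log2 fold change of 0.29 with a limma adjusted p of 0.29, so a share of its RNA in the SLC2A3 signal was not tested.

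Of the 2 hexokinase members, which run the trapping step, 1 fell and 1 did not pass the test. HKDC1, a relative outside the set named here after its values were seen, was dim and fell 2.08-fold. HK2 is the inducible hexokinase typical of fast-growing tumours. Its log2 signals were 8.77, 8.83 and 8.71 on the antagomiR-138 arrays, against 10.08, 10.18 and 10.03 on the control arrays. The 2.51-fold fall (log2 fold change −1.33, SE 0.0648, limma adjusted p = 9.73e-06) was the largest fall among the members, and 300 of the 11426 genes were lowered more. A second HK2 probe gave −0.98. HK1, the constitutive hexokinase, had 13.65, 13.64 and 13.66 on the antagomiR-138 arrays and 13.57, 13.73 and 13.67 on the control arrays. These groups overlapped, the log2 fold change had a 95% interval of −0.15 to 0.14, and neither of the 2 detected HK1 probes passed the test.

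PGM1 links glucose 6-phosphate with glycogen through glucose 1-phosphate, and its signals were 12.38, 12.27 and 12.21 on the antagomiR-138 arrays, against 13.16, 13.04 and 13.16 on the control arrays. It fell 1.78-fold without overlap (limma adjusted p = 8.17e-05). GPI, which isomerises glucose 6-phosphate to fructose 6-phosphate, had a log2 fold change of −0.24 with a 95% interval of −0.49 to 0.01 and did not pass the test.

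The 3 genes for phosphofructokinase, the committed step, diverged. PFKP, the platelet type, had log2 signals of 11.74, 11.65 and 11.83 on the antagomiR-138 arrays, against 12.68, 12.75 and 12.79 on the control arrays. PFKL, the liver type, had 8.16, 8.23 and 8.19 on the antagomiR-138 arrays, against 9.09, 9.15 and 9.20 on the control arrays. Both fell without overlap, PFKP 2.00-fold and PFKL 1.94-fold (limma adjusted p = 3.3e-05 and 2.08e-05). PFKM, the muscle type, had 9.94, 10.10 and 10.02 on the antagomiR-138 arrays, against 9.49, 9.71 and 9.56 on the control arrays. PFKM rose 1.35-fold (log2 fold change 0.44, SE 0.0787, limma adjusted p = 0.00264), also without overlap, so the muscle type moved against the other types.

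The PFKFB enzymes make and break fructose 2,6-bisphosphate, the strongest activator of phosphofructokinase. PFKFB4 had log2 signals of 10.54, 10.67 and 10.47 on the antagomiR-138 arrays, against 11.48, 11.51 and 11.47 on the control arrays, a fall by 0.92 on the log2 scale (limma adjusted p = 4.16e-05). PFKFB3, whose kinase activity far outweighs its phosphatase activity, had 10.996, 11.095 and 11.003 on the antagomiR-138 arrays, against 11.659, 11.701 and 11.582 on the control arrays, a 1.53-fold fall (limma adjusted p = 0.000168). Neither gene overlapped between groups. PFKFB2, the form of heart, was dim and its 2 detected probes disagreed. The brighter probe had 6.29, 6.34 and 6.78 on the antagomiR-138 arrays and 6.45, 6.46 and 6.37 on the control arrays, which overlap. The other had 6.08, 5.78 and 5.88 on the antagomiR-138 arrays and 5.59, 5.48 and 5.62 on the control arrays and rose by 0.35 on the log2 scale (limma adjusted p = 0.0199 over all probes).

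**Figure D2:**
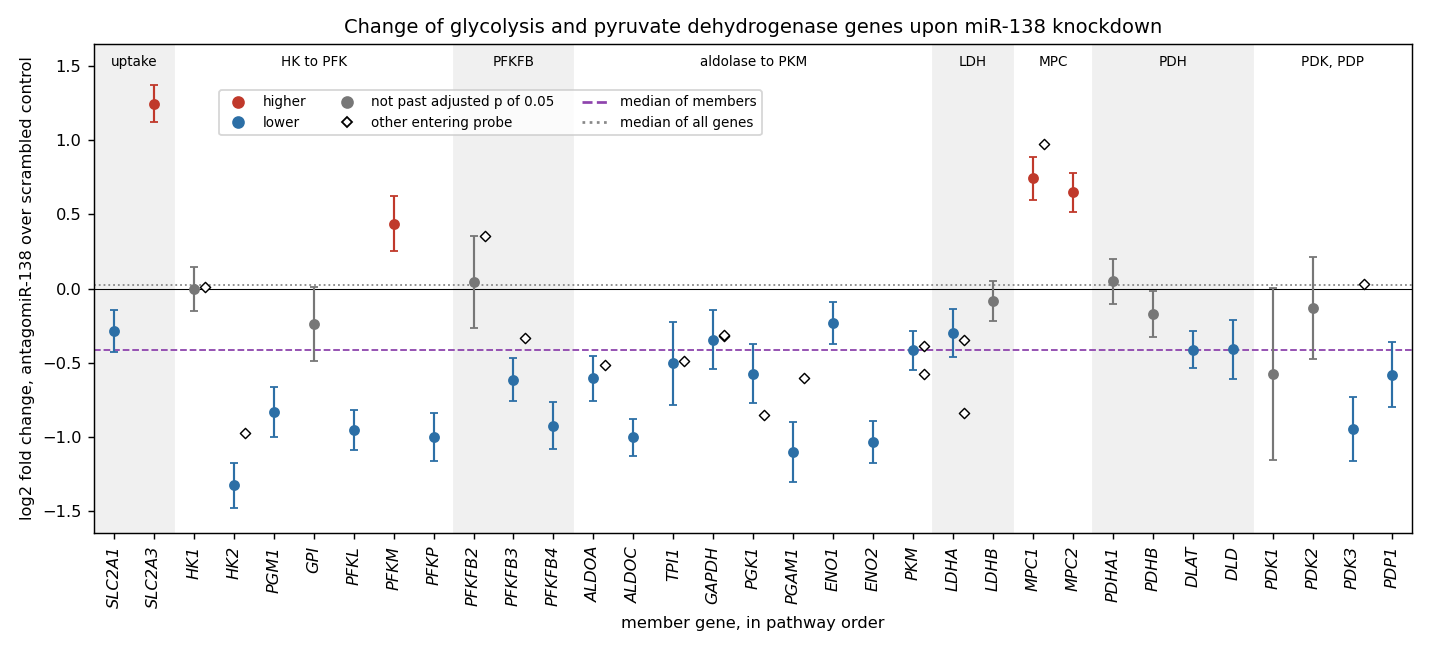
Log2 fold change of the 33 tested members, antagomiR-138 over scrambled control (vertical axis), with 95% confidence intervals from limma over 3 arrays a group. Red points rose, blue points fell, grey points did not pass an adjusted p of 0.05, open diamonds are further detected probes of the same gene, and the dashed and dotted lines mark the medians of the members (−0.41) and of all genes (0.02). The PDK3 diamond near 0 is the one probe that parts from a called fall.

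All 9 tested members from aldolase to pyruvate kinase fell, and none of the 9 overlapped between groups. Outside the set, ENO3, the muscle enolase, rose 1.72-fold. Their log2 fold changes ran from −1.10 to −0.23 with a median of −0.57. Within this stretch the fold changes of PGAM1, ENO2 and ALDOC lay furthest below 0 and those of ENO1 and GAPDH nearest to it.

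Aldolase cleaves fructose 1,6-bisphosphate into 2 triose phosphates. ALDOC, the brain-type aldolase, had 8.80, 8.76 and 8.73 on the antagomiR-138 arrays, against 9.76, 9.79 and 9.76 on the control arrays, a 2.00-fold fall (limma adjusted p = 1.2e-05). ALDOA, the general aldolase, had 12.06, 11.92 and 11.99 on the antagomiR-138 arrays, against 12.67, 12.58 and 12.54 on the control arrays, a 1.52-fold fall (limma adjusted p = 0.000209). The difference between these changes is given with the isoenzyme pairs below. TPI1, which interconverts the triose phosphates, had 12.25, 12.30 and 12.37 on the antagomiR-138 arrays, against 13.05, 12.79 and 12.59 on the control arrays, and fell 1.42-fold (limma adjusted p = 0.00833). The 3 TPI1 control values were spread more widely (SD 0.23) than the antagomiR-138 values (SD 0.06) and still lay above all of them.

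GAPDH, which makes the first NADH, had a log2 fold change of −0.35 (limma adjusted p = 0.0101), and its 3 probes gave −0.35, −0.32 and −0.32. This small fall was not called when the arrays were centred on the reference genes. PGK1, the first ATP-making kinase of the pathway, had 13.11, 12.96 and 13.17 on the antagomiR-138 arrays, against 13.76, 13.54 and 13.67 on the control arrays. It fell 1.49-fold (limma adjusted p = 0.00098), and its second probe gave a log2 fold change of −0.85. PGAM1, the phosphoglycerate mutase, had 11.06, 11.02 and 11.20 on the antagomiR-138 arrays, against 12.32, 12.07 and 12.19 on the control arrays. Its 2.15-fold fall (log2 fold change −1.10, SE 0.0849, limma adjusted p = 5.39e-05) was the second largest among the members, and a dimmer PGAM1 probe gave −0.60. The probe annotated to PGAM4, a near-identical copy named here after its values were seen, gave −1.06, so the 2 mutase genes may share signal and were not told apart.

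Enolase makes phosphoenolpyruvate. ENO2, the neuronal enolase, had 9.32, 9.24 and 9.37 on the antagomiR-138 arrays, against 10.34, 10.38 and 10.31 on the control arrays, a 2.05-fold fall (limma adjusted p = 1.77e-05). ENO1, the general enolase, had 14.94, 14.97 and 14.87 on the antagomiR-138 arrays, against 15.19, 15.10 and 15.19 on the control arrays, a 1.18-fold fall (limma adjusted p = 0.0118). ENO1 lay close to the highest log2 signal of an array, 15.29. Its call was lost under scale normalisation and when the arrays were centred on the reference genes. PKM, pyruvate kinase, fell 1.34-fold (limma adjusted p = 0.000658), and its 3 probes gave log2 fold changes of −0.42, −0.39 and −0.58.

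At the fork of pyruvate, 1 of 2 lactate dehydrogenase genes fell and both carrier genes rose. LDHA, the lactate dehydrogenase subunit that favours lactate, had 15.03, 14.87 and 14.88 on the antagomiR-138 arrays, against 15.20, 15.19 and 15.29 on the control arrays, and fell 1.23-fold (limma adjusted p = 0.00797), again a call lost on reference gene centring. Its brightest probe reached the top of the array scale, and the dimmest of the 3 LDHA probes, at 8.34, 8.39 and 8.35 on the antagomiR-138 arrays and 9.15, 9.19 and 9.25 on the control arrays, fell by 0.84 on the log2 scale. LDHB, the heart-type subunit, had 13.20, 13.15 and 13.20 on the antagomiR-138 arrays, against 13.20, 13.28 and 13.31 on the control arrays. Its log2 fold change of −0.08 had a 95% interval of −0.22 to 0.05 and did not pass the test.

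MPC1 and MPC2 form the carrier that brings pyruvate into mitochondria. MPC1 had 12.37, 12.39 and 12.25 on the antagomiR-138 arrays, against 11.60, 11.62 and 11.56 on the control arrays. MPC2 had 11.55, 11.56 and 11.63 on the antagomiR-138 arrays, against 10.97, 10.90 and 10.91 on the control arrays. Both subunits rose without overlap, MPC1 1.68-fold and MPC2 1.57-fold (limma adjusted p = 7.13e-05 and 9.03e-05), and the second MPC1 probe gave a log2 fold change of 0.97.

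Of the 4 members that encode the pyruvate dehydrogenase complex, 2 fell and none rose, whereas PDHX, a component outside the set, rose 1.68-fold. PDHA1 and PDHB, the subunits of its first enzyme E1, had log2 fold changes of 0.05 (95% interval −0.10 to 0.20) and −0.17 (−0.33 to −0.02), and neither passed the test (limma adjusted p = 0.534 and 0.0532). DLAT, the acetyl-transferring E2, and DLD, the E3 shared with other dehydrogenase complexes, each fell 1.33-fold (limma adjusted p = 0.000557 and 0.00481).

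The enzymes that switch the complex were measured less well. PDK3, a kinase that inactivates E1, had 9.19, 9.26 and 9.05 on the antagomiR-138 arrays, against 10.20, 10.19 and 9.95 on the control arrays, a 1.93-fold fall (limma adjusted p = 0.000151). A second PDK3 probe had 7.93, 7.85 and 7.94 on the antagomiR-138 arrays and 8.07, 7.79 and 7.77 on the control arrays, with a log2 fold change of 0.03 (limma adjusted p = 0.821 over all probes). The fall of PDK3 therefore rests on 1 of 2 probes. PDP1, a phosphatase that reactivates E1, had 9.87, 10.00 and 10.10 on the antagomiR-138 arrays, against 10.67, 10.42 and 10.62 on the control arrays, and fell by 0.58 on the log2 scale (limma adjusted p = 0.00143). A kinase and a phosphatase of opposite action were thus both lower on their brightest probes.

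PDK1 and PDK2 were near background. PDK1 had 6.10, 5.33 and 5.37 on the antagomiR-138 arrays, against 5.89, 6.53 and 6.11 on the control arrays, and was detected on 1 of 3 antagomiR-138 arrays and on 3 of 3 control arrays. Its log2 fold change of −0.58 (SE 0.245, limma adjusted p = 0.0794) did not pass the test, and without antagomiR-138 replicate 1, the array on which it was detected, it became −0.82 with an adjusted p of 0.0113. PDK2 had 6.68, 6.75 and 6.29 on the antagomiR-138 arrays, against 6.49, 6.77 and 6.85 on the control arrays, which overlap.

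Over all probes, 49 of the 56 annotated to the members were detected on at least 3 arrays. Of these, 33 fell, 6 rose and 10 did not pass the test, against 49.9% of 20051 probes called in either direction. In 10 of the 13 genes with more than 1 detected probe all of them were called the same way, the exceptions being HK1, PFKFB2 and PDK3.

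Because isoenzymes share a reaction, their changes were set against each other within each array, which cancels a shift common to both genes. The pairs were picked, with earlier results of these data known, as members of 1 step that differ in direction or size of change. Of 12 pairs, 11 could be compared, and in 8 of them the log2 ratio of the genes did not overlap between groups. That count is no independent support, since the pairs were picked for such differences. Among single genes 66.6% did not overlap, and the share for ratios of other genes was not computed. An exact two-sided permutation test of 3 against 3 arrays cannot go below p = 0.10, and all 8 reached that value, 0.138 after Benjamini-Hochberg adjustment over the 11 pairs, so none could pass 0.05. The ratio of SLC2A3 to SLC2A1 was 1.53 higher in log2 units upon miR-138 knockdown (95% interval 1.41 to 1.66), and that of HK2 to HK1 was lower, with a difference of −1.32 (−1.49 to −1.16). PFKM moved up against PFKP by 1.44 (1.15 to 1.73) and against PFKL by 1.39 (1.21 to 1.57). The less widely expressed enzymes moved down against their general forms, with −0.40 for ALDOC against ALDOA (−0.54 to −0.26) and −0.80 for ENO2 against ENO1 (−1.03 to −0.57). The ENO1 probe lay close to the highest signal of an array, and the part of this in its ratio was not tested. LDHB moved up against LDHA by 0.21 (0.07 to 0.36), but the LDHA probe used reached the highest signal of a control array, and averaging the LDHA probes gave 0.41. PFKFB4 moved by −0.31 against PFKFB3 (−0.42 to −0.19). In the other 3 pairs the groups overlapped. Their intervals were −0.30 to 0.11 for MPC2 against MPC1, −1.25 to 0.51 for PDK3 against PDK1 and −0.35 to 1.25 for PDK2 against PDK1. All intervals of the pairs are t intervals from the pooled SD of the ratio. They are not adjusted for the number of pairs and do not replace the permutation test, which no pair could pass.

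**Figure D3:**
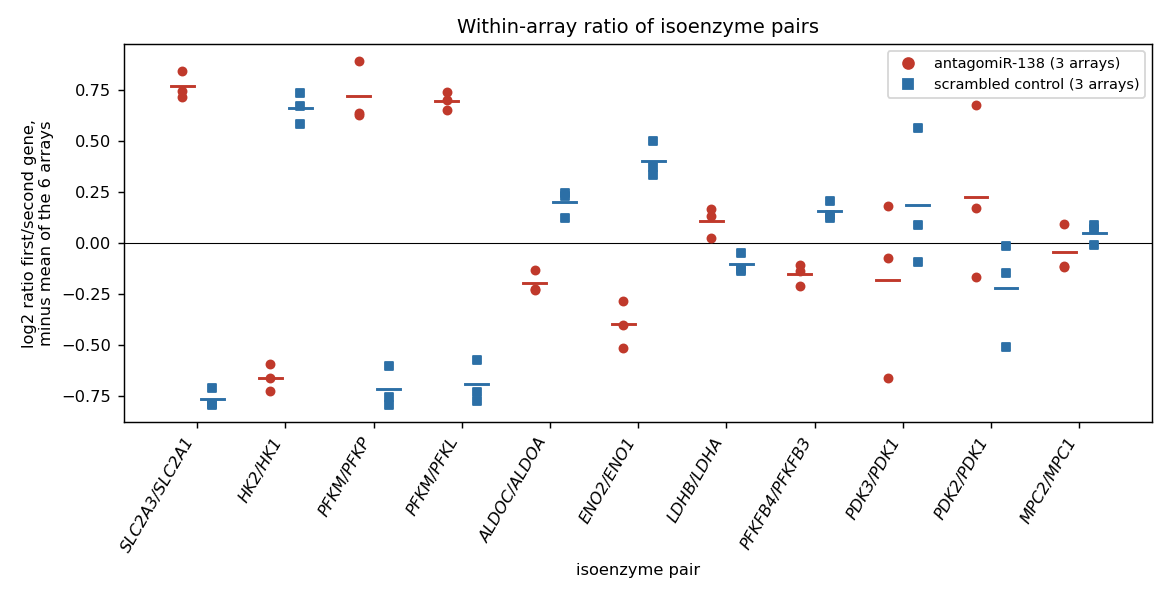
Log2 ratio of the first to the second gene of 11 isoenzyme pairs on each array, minus the mean of the 6 arrays (vertical axis, log2 units). Red circles are the 3 antagomiR-138 arrays, blue squares the 3 scrambled control arrays and bars the group means; 8 pairs have no overlap, and the pairs with PDK1 and the MPC pair overlap.

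Other genes of the same pathway moved in both directions, as did all genes tested, of which 29.1% fell and 30.9% rose. Of 16 tested further isoenzymes and sugar transporters, 7 fell, 6 rose and 3 did not pass, with a median log2 fold change of 0.08. The strongest falls were those of GALM, which converts the anomers of sugars (−1.74), and the transporter gene SLC2A10 (−1.38), and the strongest rises those of ENO3, the muscle enolase (0.78), and TIGAR, a fructose 2,6-bisphosphatase (0.55). Of 13 tested further genes of pyruvate and monocarboxylate handling, 5 fell, 4 rose and 4 did not pass, with a median of 0.03. Here SLC16A4, a relative of the lactate transporters detected on 1 of 3 antagomiR-138 arrays (−0.88), and DLST, the E2 of the oxoglutarate dehydrogenase complex (−0.72), fell most, while PDHX, which anchors E3 in the pyruvate dehydrogenase complex (0.75), and the malic enzyme ME2 (0.65) rose most.

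Of 31 tested genes of the hypoxia response outside the members, 18 fell, 5 rose and 8 did not pass. Their median log2 fold change was −0.40, close to that of the members. The share that fell was 58.1%, against 29.1% of all genes tested. MXI1, counted among the falls, was detected on no antagomiR-138 array and entered only through the control arrays. Over the 20 other settings 12 to 19 genes of this list fell. DDIT4, an inhibitor of mTORC1, had 10.34, 10.40 and 10.41 on the antagomiR-138 arrays, against 12.41, 12.29 and 12.45 on the control arrays, a 4.00-fold fall (limma adjusted p = 2.7e-06), and NDRG1 fell 2.80-fold. The list was not uniform, since ANGPTL4 rose 2.59-fold and P4HA2, a collagen prolyl hydroxylase subunit, 2.12-fold. HIF1A, the oxygen-regulated HIF-1 subunit gene, named here after its values were seen, had 11.15, 11.26 and 11.21 on the antagomiR-138 arrays, against 11.44, 11.72 and 11.67 on the control arrays (log2 fold change −0.40, limma adjusted p = 0.00598). MYC, named in the same way, had 12.26, 12.26 and 12.29 on the antagomiR-138 arrays, against 11.73, 11.77 and 11.65 on the control arrays (0.56, limma adjusted p = 0.000193). Whether either factor has a part in the members' changes was not tested.

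**Figure D4:**
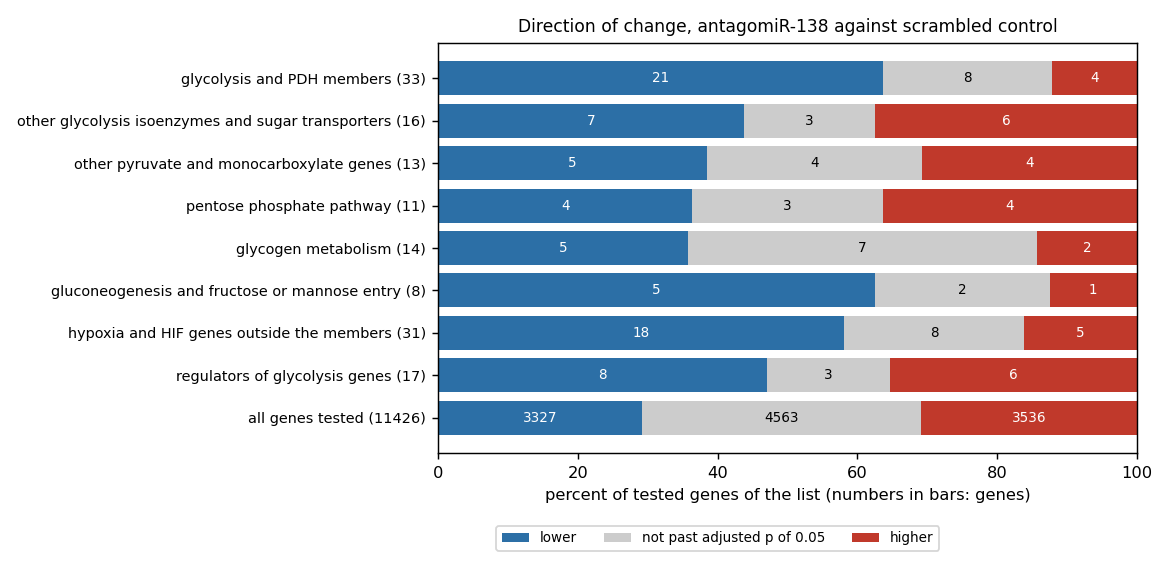
Share of the tested genes (horizontal axis, percent) that fell (blue), did not pass an adjusted p of 0.05 (grey) or rose (red), antagomiR-138 against scrambled control, for the members, 7 related lists and all genes tested, with gene numbers in the bars and list sizes in brackets. Among the members 21 of 33 fell and among hypoxia genes 18 of 31, against 3327 of 11426 genes in all.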

How the data were processed

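Total RNA was labelled as biotinylated cRNA and hybridised on Illumina bead arrays, 1 for each of 6 samples, grouped by their labels. The table deposited by the authors gives each probe an intensity after background subtraction, not normalised between arrays, and a detection p-value. A second table deposited by the authors holds the same intensities normalised between arrays and served as an alternative. GenomeStudio 1.9.0 is named in the processing notes of the submitters, whereas the methods cite BeadStudio and Partek. The methods name an array design other than that of the platform annotation. Of 47322 probes, 30113 have 1 gene symbol there, 8 several and 17201 none.

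limma 3.58.1 was run under R 4.3.3. Its neqc function corrected the background from the detection p-values (normexp), quantile-normalised the arrays and took log2 after adding 16. A probe entered when 3 or more arrays had a detection p below 0.05 (20051 probes), and a gene is its brightest entering probe (11426 genes). lmFit and eBayes were fitted over all 6 arrays, two-sided, with Benjamini-Hochberg adjustment at 0.05, and again over all entering probes. The fit was also run on simulated data with far fewer changed genes than were called here, so that run does not test the conditions of these data. The number of arrays limits the precision, with a median within-group SD of 0.10 on the log2 scale for all genes and 0.07 for the members. A probe detected on no array of a group gives a bound, the brighter group's mean against the higher of the lowest detected signal and the probe's own.

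The members, gene lists and isoenzyme pairs were chosen with earlier results of these data known. Every member is named. Values of each array are given for members that rose, that fell by at least 0.5 on the log2 scale without overlap, or that stand in an isoenzyme pair, and for disagreeing probes. Of each related list the 2 strongest called rises and falls are named. Alternatives were other background corrections, normalisations, detection filters and thresholds, averaging the probes of a gene, other variance settings, the methods' t-test, a block on replicate number, leaving out each array and centring on 10 reference genes. No slide is named in the sources used here. Promoter windows and the microRNA sequence are from RefSeq (GRCh38.p14).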

Additional observations from a re-analysis of the deposited data

How the results depend on the processing

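All 25 called members kept their direction in each of the 20 other settings run. Settings that alter only the test or its threshold leave the fold changes as they are and could not turn a direction. Apart from the 2 stricter thresholds, 21 of the 25 members kept their call, the exceptions being SLC2A1, GAPDH, ENO1 and LDHA. Without normalisation between arrays these 4 lost it at folds near the reported ones (SLC2A1 −0.31, GAPDH −0.36, ENO1 −0.21 and LDHA −0.30 on the log2 scale). Centred on the 10 reference genes they lost it at smaller folds (SLC2A1 −0.13, GAPDH −0.18, ENO1 −0.07 and LDHA −0.13), and ENO1 also lost it with scale normalisation. With a minimum fold change of 1.5, the members that fell numbered 11 in place of 21, which follows from the threshold. The median log2 fold change of the members was −0.34 with scale normalisation and −0.25 when centred on the reference genes, and the cause was not tested. Relative to the median of all genes it was −0.43, and −0.48 to −0.40 over the 20 settings. The other variance settings, the t-test, the replicate block, the 2 thresholds and the reference gene centring cannot change this difference. Leaving out each array in turn gave 21 to 22 members that fell, 4 that rose and a median of −0.43 to −0.38. Members that rose numbered 3 to 5 over all settings. The count of all genes that rose, 3536, was 1942 without normalisation between arrays and 1297 with the fold minimum, which left 1576 in place of 3327 that fell. PDHB, GPI, PDK1 and PDHA1 passed the test in at least 1 setting but not in the reported one. Hypoxia genes that rose, 5 as reported, numbered 3 to 8. Of the 11 isoenzyme pairs, 10 kept their sign in all 13 settings run for pairs, and PDK3 against PDK1 turned to 0.12 when probes of a gene were averaged. A block on replicate number (replicate block) gave 4 members that rose and 21 that fell with a median of −0.41, but same-numbered arrays did not deviate together (correlations −0.01, −0.01 and 0.04), so the numbers do not pair the samples. Signals near background limit PDK1, PDK2 and PFKFB2, and the top of the scale limits ENO1 and LDHA.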

Other observations

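The branches that leave glycolysis moved in mixed directions, as did all genes tested, of which 29.1% fell and 30.9% rose. Of 11 tested genes of the pentose phosphate pathway, which makes NADPH and ribose from glucose 6-phosphate, 4 fell, 4 rose and 3 did not pass the test, with a median log2 fold change of 0.03. RPIA, the ribose 5-phosphate isomerase, had 11.23, 11.05 and 11.11 on the antagomiR-138 arrays, against 10.10, 10.03 and 10.02 on the scrambled control arrays (2.11-fold higher, limma adjusted p = 2.4e-05), and RBKS, the ribokinase, rose 1.48-fold. PGD, the NADPH-making 6-phosphogluconate dehydrogenase, fell 1.42-fold and PRPS2, which makes phosphoribosyl pyrophosphate, 1.39-fold. Of 14 tested genes of glycogen metabolism, 5 fell, 2 rose and 7 did not pass. The branching enzyme gene GBE1 had 10.91, 10.90 and 10.76 on the antagomiR-138 arrays, against 11.90, 11.99 and 12.01 on the control arrays (2.15-fold lower, limma adjusted p = 2.2e-05), and the liver-type phosphorylase gene PYGL fell 1.74-fold. GYG1, the glycogenin that primes the polymer, rose 2.18-fold, and the phosphatase targeting subunit PPP1R3D 1.39-fold.

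Of 8 tested genes of gluconeogenesis and of fructose, galactose or mannose entry, 5 fell, 1 rose and 2 did not pass. The share that fell was 62.5%, against 29.1% of all genes tested. It rests on few genes, since 3 in place of 5 fell with a detection p under 0.01 required on all 6 arrays. The same number fell with a minimum fold change of 1.5. FBP1, the gluconeogenic fructose 1,6-bisphosphatase, fell 1.86-fold and GALT, of galactose use, 1.74-fold, while G6PC3, a glucose 6-phosphatase, rose 1.53-fold. Of 17 tested regulators of glycolysis genes, a list that shares HIF1A, ARNT and MXI1 with the hypoxia list, 8 fell, 6 rose and 3 did not pass. MXI1, a MAX partner that opposes MYC, and PRKAA2, a catalytic subunit of AMP-activated kinase, were detected on no antagomiR-138 array and on 3 of 3 control arrays, and were at least 1.83-fold and at least 1.54-fold lower. Both therefore entered only through the control arrays, where they are higher, and their place in the count of falls depends on the entry rule. With a detection p under 0.01 required on all 6 arrays, 5 regulators fell in place of 8. The arrestin gene ARRDC4 rose 1.81-fold and MAX, the dimer partner of MYC, 1.62-fold.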
